A study of Homo sapiens with 6 samples.

Results

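Genes of ribosome biogenesis and RNA polymerase I were examined in HaCaT cells, a spontaneously immortalized human keratinocyte (KC) line, after transfection with a synthetic miR-21-3p or a negative control (NC). The 42 listed genes were looked up by name in the deposited table of 22152 genes, and 41 had a row. BOP1 was not analysed here. All 41 passed the filter on low values, as did 14795 genes in all.

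The data set held 6 libraries, of polyA RNA by their labels, 3 from KCs given the NC mimic and 3 from KCs given the miR-21-3p mimic, each at 1 nM and harvested 48 h later. The replicates of each group are biological replicates of a single cell line according to the series record. The comparison asks how the transcriptome of KCs changes when miR-21-3p is overexpressed. Depth was alike, with about 24400000 to 26200000 reads in genes in the NC libraries and 24800000 to 28000000 in the miR-21-3p libraries. All values are reads per gene divided by a scaling factor for each library, called normalised reads below, so a level is relative to the other genes of the same library. In bulk RNA, a different number of cells of some kind and a different amount of RNA per cell cannot be told apart.

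Ribosome assembly starts in the nucleolus, where RNA polymerase I transcribes a long precursor of ribosomal RNA. Small nucleolar ribonucleoproteins (snoRNPs) modify this precursor, and large sets of assembly factors cut, fold and load it with ribosomal proteins to form the small (40S) and large (60S) subunits. MYC is a transcription factor known to raise the expression of many of these genes in growing cells, by binding with its partner MAX to E-box motifs, and dividing basal KCs depend on this supply of new ribosomes.

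The cells carried the markers of their label. Of 10 KC markers, 9 had a row, led by KRT5 with 123000 to 139000 normalised reads, and the summed level of the list was 280480 to 299690 in the NC and 282060 to 305420 in the miR-21-3p libraries. By the same limma test as below, KRT6A was upregulated and ITGB4 was lower (1 of 9, or 11.1%, each way, against 6.11% of all genes higher and 4.66% lower), and the other 7 did not pass. Without NC library 1, NC library 3, miR-21-3p library 1 or miR-21-3p library 3, ITGB4 missed the threshold (adjusted p up to 0.145, log2 fold change -0.25 to -0.20). Without NC library 2, 2 KC markers were higher and 2 lower (22.2% each way). Of all 14795 genes, 1627 (11%) were higher and 1330 lower in that fit. Of the markers of other cell types with a row, the fibroblast collagen COL1A1 was at 390 to 560 normalised reads in the NC and 364 to 378 in the miR-21-3p libraries. The groups did not overlap, and the log2 fold change of -0.34 did not pass (limma adjusted p 0.0641, unadjusted 0.00845). With 1 library left out the value ran from -0.48 to -0.22, and COL1A1 was called lower without NC library 2 (-0.48). The monocyte marker CD14 was at 58.7 to 89.6 and 69.1 to 92.2, and the endothelial gene VWF at 720 to 801 and 712 to 761, in the NC and miR-21-3p libraries respectively. The endothelial cadherin CDH5 was at 286 to 477 in the NC and 122 to 178 in the miR-21-3p libraries (log2 fold change -1.30, limma adjusted p 0.00262). The melanocyte gene PMEL was at 120 to 155 and 126 to 152. MITF was at 476 to 512 in the NC and 441 to 464 in the miR-21-3p libraries, without overlap, and its log2 fold change of -0.13 did not pass (limma adjusted p 0.218). The part of these genes in the values below was not tested. Another 16 listed markers were not analysed here.

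Before any single gene is described, the libraries themselves differed in a way that bears on most of the values below. On the first principal component of all genes tested, which held 46.7% of the variance, the NC libraries scored 21.3, 1.9 and 13.3 and the miR-21-3p libraries -11.8, -6.9 and -17.8. The groups were separate, and in each group library 2 lay nearest to the other group. The listed genes had the same pattern. NC library 2 was the highest of the NC libraries for 34 of 41 members (82.9%, against 36.1% of all genes tested), and miR-21-3p library 2 was the lowest of its group for 33 of 41 (80.5%, against 36.4%). Both held for 29 members (70.7%, against 18.5%).

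As a whole, the list was higher in KCs overexpressing miR-21-3p, by a small amount. With limma and Benjamini-Hochberg adjustment over all genes, 9 of 41 members (22%) were upregulated at an adjusted p under 0.05, against 904 of 14795 genes (6.11%). No member was lower at that threshold, against 689 genes (4.66%), and none was lower at an unadjusted p under 0.05, or by DESeq2 or edgeR, while 25 (61%) were higher at an unadjusted p under 0.05, against 15.3% of all genes. In either direction, 10.8% of all genes passed, and 28.5% had an unadjusted p under 0.05. The median log2 fold change was 0.21 over the members and 0.00 over all genes tested, and 38 members (92.7%) had a value above 0, against 51% of all genes. Complete separation of the groups was closer to the background: the miR-21-3p libraries were all above the NC libraries for 9 members (22%) and for 16.5% of all genes. Members share libraries and vary together, and the list was chosen with earlier results of these data known. These counts therefore describe the list and are not a test of it.

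**Figure D1:**
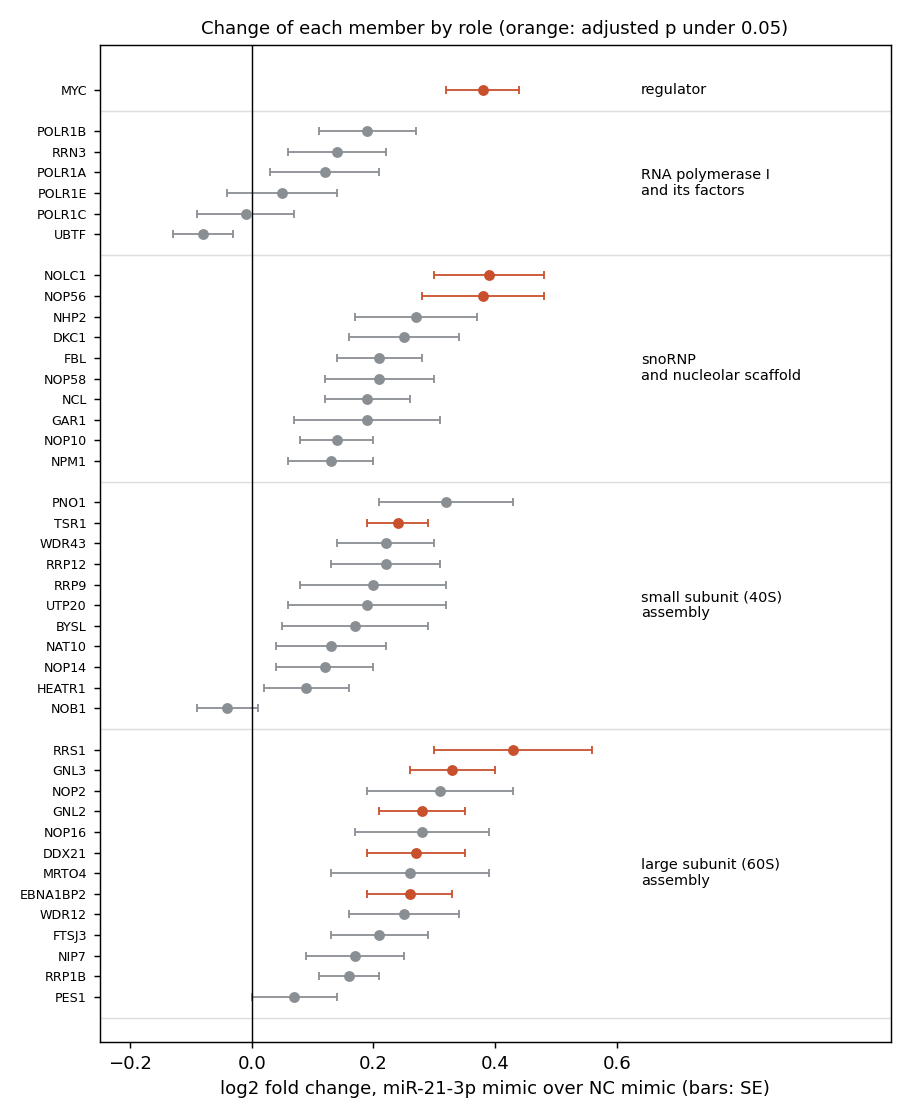
Log2 fold change of each of the 41 members, miR-21-3p mimic over NC mimic, with its standard error as a bar, ordered by role. Orange points are the 9 members past an adjusted p of 0.05, and 38 of the points lie above 0, with UBTF, NOB1 and POLR1C slightly below it.

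The number of calls changed when 1 library was left out, which also leaves fewer samples. Without NC library 1, NC library 3, miR-21-3p library 1 or miR-21-3p library 3, MYC was the only member past the threshold (1 of 41, or 2.44%, in each case). Of all genes, 2.12%, 0.642%, 0.987% and 1.37% were higher in these fits, and the members' share rested on MYC alone. Without NC library 2 the count was 24 (58.5%, against 11% of all genes), and without miR-21-3p library 2 it was 19 (46.3%, against 6.08%), in both cases including the 9. In each of these 6 fits 38 members had a fold change above 0, and the members' median log2 fold change ran from 0.15 to 0.29. The share of all genes at an unadjusted p under 0.05 is given for the full fit only. Counts at that threshold in fits with 1 library left out therefore have no background beside them, and no result is read from them.

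MYC (ENSG00000136997.10) was the member with the lowest p. Its level was 3180, 2730 and 2740 normalised reads in the NC libraries and 3760, 3860 and 3590 in the miR-21-3p libraries. All 3 miR-21-3p libraries were above all 3 NC libraries, and library 2 held the highest value of the miR-21-3p group and the lowest of the NC group. The group means were 2883 ± 257 and 3737 ± 137 (SD, n = 3), a log2 fold change of 0.38 ± 0.06 (SE) or 1.30-fold, with a limma adjusted p of 0.00554. MYC stayed past the threshold with any 1 library left out, with adjusted p from 0.00163 to 0.0444.

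As a median, the other members did not follow MYC from library to library within a group. Single members differed, and NPM1, POLR1E and RRN3 were, like MYC, highest of their group in miR-21-3p library 2. Relative to each gene's own mean over the 6 libraries, the median of the 40 other members was -0.20, 0.03 and -0.14 on the log2 scale in NC libraries 1, 2 and 3, where MYC was at -0.04, -0.26 and -0.26. In miR-21-3p libraries 1, 2 and 3 the median was 0.12, -0.02 and 0.22 and MYC was at 0.20, 0.24 and 0.13. Thus NC library 2 and miR-21-3p library 2, the closest across the groups by the median of the other members, were the farthest apart for MYC. For MYC, however, NC libraries 2 and 3 were level, at -0.26 each. Summed over the 40 genes, the level was 48916, 56629 and 51138 normalised reads in the NC libraries and 60782, 55070 and 63750 in the miR-21-3p libraries. NC library 2 exceeded miR-21-3p library 2 in this sum, while the remaining libraries kept the order of the groups.

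**Figure D2:**
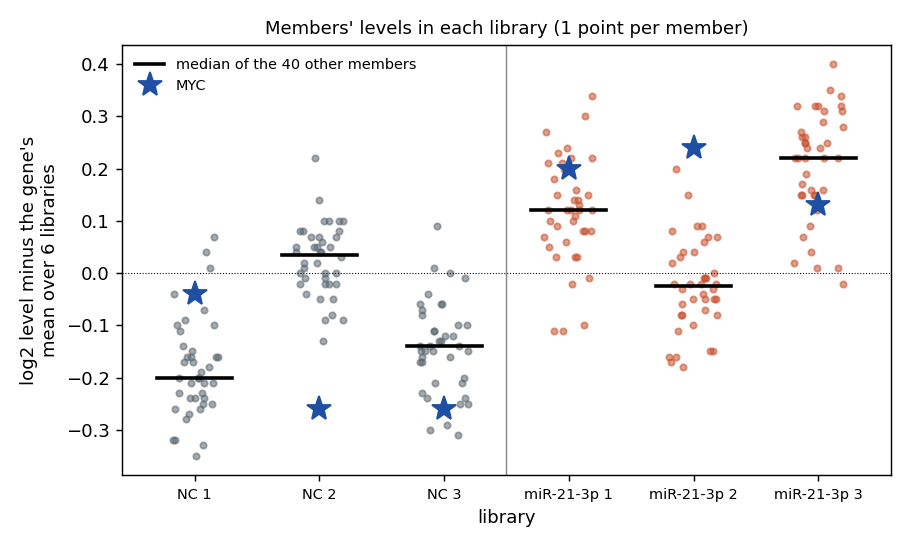
Level of each member in each library as the log2 value minus the gene's mean over the 6 libraries, with 1 point per member, a black bar at the median of the 40 members other than MYC, and a star for MYC. The medians of NC library 2 (0.03) and miR-21-3p library 2 (-0.02) lie close together, whereas MYC is at -0.26 and 0.24 in the same libraries.

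The promoters of the listed genes were searched for the E-box, the motif that MYC is known to bind, as a description. RefSeq promoters of 300 bases (250 before and 50 after the annotated start, GRCh38.p14) were matched by symbol for 34 of 41 members. The canonical E-box CACGTG, which reads the same on both strands, was found in at least 1 promoter of 17 of the 34 genes (50%), against 8.77% of 27305 genes in the whole promoter table and 12.5% of 9001 genes that were also tested in these libraries. By role, it was in 7 of 11 genes of 60S assembly, 7 of 10 of 40S assembly, 3 of 8 of the snoRNP group and 0 of 5 of the RNA polymerase I group. A match is a description of these letters in this window, and binding was not measured. Of the called members, 6 were in the promoter table and 4 of them had a match (66.7%, against 50% of the 34 genes). TSR1 and NOP56 had no match, and MYC, NOLC1 and RRS1 were not in that table. Members that were not called, such as NOP14, UTP20 and PES1, also had a match. A link between the motif and the calls was not tested. The promoters of GNL3, EBNA1BP2, GNL2 and DDX21, the called members for which the table holds a match, are printed 5′ to 3′ on the strand of the gene, with the E-box in capitals. For GNL3, EBNA1BP2 and DDX21 the table lists more than 1 promoter, and the first one with a match is given.
GNL3, chr3:52685782-52686081, plus strand: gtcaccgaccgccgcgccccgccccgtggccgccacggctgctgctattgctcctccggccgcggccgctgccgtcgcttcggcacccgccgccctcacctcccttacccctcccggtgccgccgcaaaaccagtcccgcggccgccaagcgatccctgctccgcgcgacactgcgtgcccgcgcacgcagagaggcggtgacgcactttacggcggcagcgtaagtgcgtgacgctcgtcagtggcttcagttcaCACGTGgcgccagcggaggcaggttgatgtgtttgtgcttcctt
EBNA1BP2, chr1:43172521-43172820, minus strand: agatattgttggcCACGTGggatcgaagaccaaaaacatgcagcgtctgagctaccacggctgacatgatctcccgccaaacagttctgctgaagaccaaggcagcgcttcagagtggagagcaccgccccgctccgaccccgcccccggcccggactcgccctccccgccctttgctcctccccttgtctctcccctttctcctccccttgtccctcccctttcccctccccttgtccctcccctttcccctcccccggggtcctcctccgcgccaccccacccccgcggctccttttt
GNL2, chr1:37595888-37596187, minus strand: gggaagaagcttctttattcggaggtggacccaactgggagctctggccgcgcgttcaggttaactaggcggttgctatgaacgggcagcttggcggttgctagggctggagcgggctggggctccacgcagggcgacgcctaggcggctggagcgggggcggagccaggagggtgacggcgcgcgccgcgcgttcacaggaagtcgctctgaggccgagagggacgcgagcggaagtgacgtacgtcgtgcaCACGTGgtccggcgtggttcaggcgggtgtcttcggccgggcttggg
DDX21, chr10:68956397-68956696, plus strand: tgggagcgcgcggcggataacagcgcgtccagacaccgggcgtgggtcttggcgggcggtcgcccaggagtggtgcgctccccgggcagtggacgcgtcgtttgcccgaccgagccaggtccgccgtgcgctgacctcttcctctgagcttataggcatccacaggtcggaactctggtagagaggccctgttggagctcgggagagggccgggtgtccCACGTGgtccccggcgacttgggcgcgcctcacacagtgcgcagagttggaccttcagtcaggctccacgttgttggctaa

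The genes of RNA polymerase I and its factors were the role group with the smallest median change. None of the 6 passed the threshold by limma, DESeq2 or edgeR, 1 (16.7%) had an unadjusted p under 0.05 and was higher, near the 15.3% of all genes, and the median log2 fold change was 0.09. With 1 library left out, this median ran from 0.04 (without NC library 1 or miR-21-3p library 3) to 0.15 (without NC library 2). In these fits 0 to 3 genes had an unadjusted p under 0.05. The calls were 1 without NC library 2 and 1 without miR-21-3p library 2 (16.7% each, against 11% and 6.08% of all genes). POLR1B, the second largest subunit, was at 689, 689 and 679 normalised reads in the NC and 814, 694 and 853 in the miR-21-3p libraries. The groups did not overlap, but miR-21-3p library 2 lay just above the NC libraries, and the log2 fold change of 0.19 ± 0.08 (SE) had a limma adjusted p of 0.117. POLR1B passed without miR-21-3p library 2 (log2 fold change 0.28, limma adjusted p 0.0264). UBTF, which bends ribosomal DNA for transcription and has the most reads of this group, was at 2430, 2470 and 2370 in the NC and 2200, 2330 and 2370 in the miR-21-3p libraries. These overlapped, with a log2 fold change of -0.08 ± 0.05 (limma adjusted p 0.315). POLR1A, the largest subunit, had a log2 fold change of 0.12, RRN3, which brings the polymerase to the promoter, 0.14, POLR1E 0.05, and POLR1C, a subunit shared with RNA polymerase III, -0.01.

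In the snoRNP and nucleolar scaffold group, all 10 genes had a fold change above 0 (against 51% of all genes), 2 passed the threshold (20%, against 6.11%), 8 were higher at an unadjusted p under 0.05 (80%, against 15.3%), and the median log2 fold change was 0.21. The calls were 7 without NC library 2 (70%, against 11% of all genes) and 6 without miR-21-3p library 2 (60%, against 6.08%). With any other library left out they were 0, with 3 to 5 at an unadjusted p under 0.05. The median over all these fits ran from 0.17 to 0.32. NOLC1 (ENSG00000166197.12), a phosphoprotein that chaperones snoRNPs, was at 2640, 3280 and 2830 normalised reads in the NC libraries and 4010, 3280 and 4230 in the miR-21-3p libraries. The groups touched, since both libraries numbered 2 had the same value, and the others were well apart. Its log2 fold change was 0.39 ± 0.09 (SE), with a limma adjusted p of 0.021. NOP56 (ENSG00000101361.10), a core protein of the box C/D snoRNPs that guide ribose methylation, was at 1720, 2130 and 1800 in the NC and 2500, 2070 and 2820 in the miR-21-3p libraries. Here miR-21-3p library 2 fell below NC library 2, so the groups overlapped, and the log2 fold change was 0.38 ± 0.10 (limma adjusted p 0.0326).

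Nucleolin (NCL), an abundant RNA-binding protein of the nucleolus, had the most reads of all members, with 10600, 12700 and 11200 in the NC and 13600, 11800 and 14000 in the miR-21-3p libraries. The groups overlapped through the libraries numbered 2, and its log2 fold change of 0.19 ± 0.07 did not pass (limma adjusted p 0.11). NCL passed without NC library 2 (log2 fold change 0.27, limma adjusted p 0.0102) or miR-21-3p library 2 (0.27, adjusted p 0.0346). Over the fits with 1 library left out the value ran from 0.14 to 0.27. Per kilobase of merged exons, NCL was at 2851 normalised reads in the NC and 3256 in the miR-21-3p group, followed by NOP10 at 2359 and 2599, while WDR12 of the 60S group was at 43.7 and 52.0 on the same scale. The remaining proteins of the snoRNP cores did not pass: the methyltransferase FBL (0.21) and NOP58 (0.21) of the box C/D class, and the pseudouridine synthase DKC1 (0.25) with NHP2 (0.27), GAR1 (0.19) and NOP10 (0.14) of the box H/ACA class. DKC1 passed by DESeq2 but not by limma or edgeR. The nucleolar chaperone NPM1 had a log2 fold change of 0.13 and is uncertain, since 45 pseudogenes carry its name in the annotation and could share its reads. Another 7 members have 1 to 3 named pseudogenes each and carry the same doubt to that extent: RRN3, NOP56, NHP2, NCL, PES1, NIP7 and GNL2.

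Among the 11 genes of 40S assembly, 1 passed the threshold (9.09%, near the 6.11% of all genes), 10 had a fold change above 0 and 4 were higher at an unadjusted p under 0.05 (36.4%, against 15.3%), with a median log2 fold change of 0.19. Without NC library 2 the calls were 5 (45.5%, against 11% of all genes), and without miR-21-3p library 2 they were 2 (18.2%, against 6.08%). With any other library left out they were 0, with 1 to 3 at an unadjusted p under 0.05. The median over all these fits ran from 0.11 to 0.26. TSR1 (ENSG00000167721.5), a factor of late cytoplasmic 40S maturation, was at 2160, 2400 and 2170 normalised reads in the NC and 2650, 2550 and 2720 in the miR-21-3p libraries. All miR-21-3p libraries were above all NC libraries. The log2 fold change was 0.24 ± 0.05 (SE), with a limma adjusted p of 0.0186. PNO1, an RNA-binding protein of the pre-40S particle, had the largest change of this group and was at 219, 275 and 225 in the NC and 301, 270 and 323 in the miR-21-3p libraries. NC library 2 lay above miR-21-3p library 2, and the log2 fold change of 0.32 ± 0.11 missed the threshold (limma adjusted p 0.0783). PNO1 passed without NC library 2 (log2 fold change 0.42, limma adjusted p 0.0116). NOB1, the nuclease that makes the final cut of 18S ribosomal RNA, was the member of this group below 0, with a log2 fold change of -0.04. The others, WDR43, RRP12, RRP9, UTP20, BYSL, NAT10, NOP14 and HEATR1, had values from 0.09 to 0.22.

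In the 60S assembly group, 5 of 13 genes passed (38.5%, against 6.11% of all genes), and the median log2 fold change was 0.26. All 13 genes were above 0 (against 51%), and 11 were higher at an unadjusted p under 0.05 (84.6%, against 15.3%). The calls rose to 10 without NC library 2 (76.9%, against 11% of all genes) and 9 without miR-21-3p library 2 (69.2%, against 6.08%). With any other library left out they were 0, with 5 to 8 at an unadjusted p under 0.05. The median over all these fits ran from 0.20 to 0.35. GNL3 (ENSG00000163938.12), known as nucleostemin, a nucleolar GTPase of proliferating cells, was at 635, 691 and 696 normalised reads in the NC and 874, 770 and 910 in the miR-21-3p libraries. Every miR-21-3p library was above every NC library. Its log2 fold change was 0.33 ± 0.07 (SE), with a limma adjusted p of 0.0168. GNL2 (ENSG00000134697.7), a related GTPase, was at 672, 788 and 686 in the NC and 854, 832 and 917 in the miR-21-3p libraries. These groups were separate too, and the log2 fold change was 0.28 ± 0.07 (limma adjusted p 0.0302).

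EBNA1BP2 (ENSG00000117395.6), a factor of early pre-60S particles, was at 1320, 1510 and 1380 normalised reads in the NC and 1650, 1570 and 1810 in the miR-21-3p libraries. The groups did not overlap, with the libraries numbered 2 nearest to each other. The log2 fold change was 0.26 ± 0.07 (SE), with a limma adjusted p of 0.0297. DDX21 (ENSG00000165732.8), a nucleolar RNA helicase, was at 2860, 3470 and 2930 in the NC and 3900, 3350 and 3930 in the miR-21-3p libraries. NC library 2 lay above miR-21-3p library 2, and the log2 fold change was 0.27 ± 0.08 (limma adjusted p 0.0413). When the values were scaled by the total of each library, DDX21 missed the threshold (limma adjusted p 0.0509).

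RRS1 (ENSG00000179041.2), which helps to bring the 5S ribonucleoprotein into the pre-60S particle, was the least abundant of the called members and had the largest fold change. It was at 147, 182 and 148 normalised reads in the NC and 232, 182 and 229 in the miR-21-3p libraries. The groups touched at the libraries numbered 2, which had the same value. The log2 fold change was 0.43 ± 0.13 (SE), with a limma adjusted p of 0.0489, and among other settings, scaling by totals (0.0554) or testing without a filter on low values (limma adjusted p 0.0608) ended the call. The 8 genes of this group that did not pass were NOP2, NOP16, MRTO4, WDR12, FTSJ3, NIP7, RRP1B and PES1, with log2 fold changes from 0.07 for PES1 to 0.31 for the methyltransferase NOP2.

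**Figure D3:**
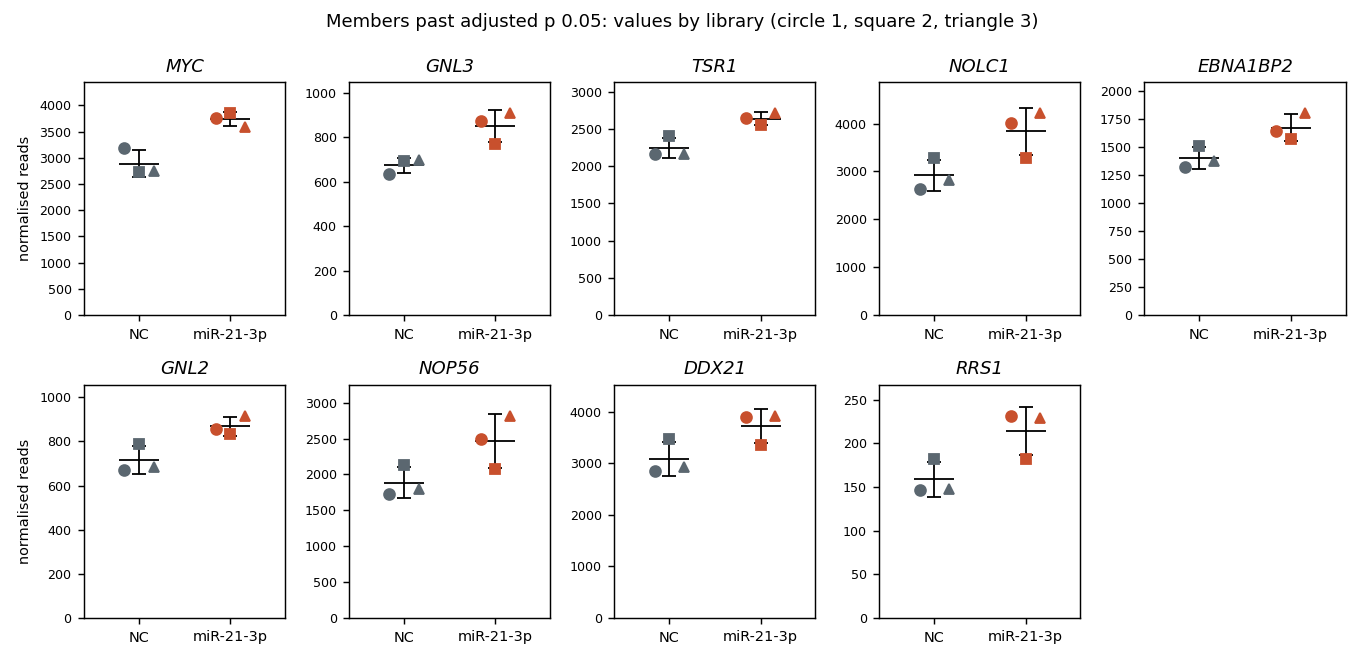
Normalised reads of the 9 members past an adjusted p of 0.05 in each library, with the mean and SD of each group (n = 3) and axes that start at 0. Circles, squares and triangles are libraries 1, 2 and 3, and the squares of both groups meet for NOLC1 and RRS1 and cross for NOP56 and DDX21.

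Of the 9 called members, 5 had groups that did not overlap (MYC, GNL3, TSR1, EBNA1BP2 and GNL2) and 4 had groups that met or overlapped. All but MYC lost the call when any 1 of NC library 1, NC library 3, miR-21-3p library 1 or miR-21-3p library 3 was left out, with the highest adjusted p between 0.0835 for GNL3 and 0.183 for RRS1. The fold changes kept their direction in all 6 fits, with log2 values of 0.28 to 0.40 for GNL3, 0.21 to 0.29 for TSR1 and 0.37 to 0.54 for RRS1. In the annotation, 18 members have exons that overlap a gene on the opposite strand, GNL3, TSR1, EBNA1BP2 and GNL2 among them. The library kit marks strand, but whether the counting used it is not given in the sources used here.

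Further genes of the same pathway, 142 in 5 lists, were described next, of which 137 had a row. By limma, 14 were upregulated (10.2%, against 6.11% of all genes) and 0 were lower, with 53 at an unadjusted p under 0.05 (38.7%, against 28.5%), 2 of them lower, and the median log2 fold change was 0.13. Without NC library 3 or miR-21-3p library 1, 0 were upregulated, with 30 and 32 at an unadjusted p under 0.05. The count was 4 without NC library 1 (2.92%) and 2 without miR-21-3p library 3 (1.46%), near the 2.12% and 1.37% of all genes. It rose to 40 without NC library 2 (29.2%, against 11%) and 20 without miR-21-3p library 2 (14.6%, against 6.08%). In those 2 fits, 2 and 1 genes were lower (1.46% and 0.73%), against 1330 and 642 of all 14795 genes. The median ran from 0.10 to 0.16 over the fits with 1 library left out. By DESeq2, and by edgeR with RLE factors, 1 of the 137 was lower: POLR1D, a subunit shared with RNA polymerase III, named here after its values were seen. The calls were 2 of 15 other genes of RNA polymerase I, 3 of 19 of snoRNP assembly, ribosomal RNA modification and RNase MRP, 3 of 42 of 40S assembly, 4 of 46 of 60S assembly, and 2 of 15 of the exosome and pre-rRNA trimming. The shares called in 40S (7.14%) and 60S assembly (8.7%) are near the 6.11% of all genes. These calls are no result about those lists, and the other shares rest on 2 or 3 genes each. A fold change above 0 was found for 122 of the 137 genes, against 51% of all genes. This included all 42 of 40S assembly and 40 of 46 of 60S assembly.

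The 3 of these with the smallest p were TRMT112, TCOF1 and ZNHIT6. TCOF1 (treacle), which joins RNA polymerase I transcription to snoRNP work, was at 1820, 2260 and 1910 normalised reads in the NC and 2690, 2420 and 2880 in the miR-21-3p libraries. Every miR-21-3p library was above the NC libraries, and the log2 fold change was 0.42 ± 0.08 (SE, limma adjusted p 0.0108). TRMT112, the activator of several methyltransferases, was at 1700, 1880 and 1760 in the NC and 2270, 2060 and 2210 in the miR-21-3p libraries. These were separate as well, with a log2 fold change of 0.29 ± 0.06 (limma adjusted p 0.0104). ZNHIT6, a factor of box C/D snoRNP assembly, was at 593, 685 and 638 in the NC and 817, 760 and 834 in the miR-21-3p libraries. Its groups did not overlap, and the log2 fold change was 0.33 ± 0.07 (limma adjusted p 0.0147). All 3 missed the threshold without NC library 3 or without miR-21-3p library 1, and ZNHIT6 also without miR-21-3p library 3, with adjusted p up to 0.0643 for TRMT112, 0.0636 for TCOF1 and 0.0732 for ZNHIT6, and log2 fold changes over the 6 fits of 0.26 to 0.33, 0.35 to 0.51 and 0.28 to 0.38.

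Around MYC itself, the network of partners and antagonists moved in both directions. Of 15 genes with a row, 2 were upregulated (13.3%, against 6.11% of all genes) and 3 lower (20%, against 4.66%), with a median log2 fold change of -0.06. With 1 library left out, 2 genes were upregulated without NC library 2 (13.3%, near the 11% of all genes) and 0 in the other fits. Without NC library 1, 2 or 3, the genes called lower were 2 (13.3%), 4 (26.7%) and 2 (13.3%). Of all 14795 genes, 229, 1330 and 81 were lower in the same fits. Without miR-21-3p library 1, 2 or 3, they were 2 (13.3%), 3 (20%) and 2 (13.3%), against 131, 642 and 163 of all genes. MYCL (listed under its older symbol MYCL1), a paralogue of MYC, was at 744, 551 and 697 normalised reads in the NC and 399, 444 and 349 in the miR-21-3p libraries. All miR-21-3p libraries were below all NC libraries, opposite to MYC, and the log2 fold change was -0.73 ± 0.11 (SE, limma adjusted p 0.00499). MLXIP, a glucose-responsive factor that pairs with MLX, was at 3650, 3150 and 3460 in the NC and 2760, 2670 and 2660 in the miR-21-3p libraries. It was lower in every miR-21-3p library, with a log2 fold change of -0.34 ± 0.06 (limma adjusted p 0.00558). MXD4, which competes with MYC for MAX, was at 1960, 1650 and 1780 in the NC and 1560, 1560 and 1370 in the miR-21-3p libraries. The groups were separate, and the log2 fold change was -0.26 ± 0.07 (limma adjusted p 0.0354, and up to 0.135 with 1 library left out, where the log2 fold change ran from -0.32 to -0.20). MXD3 (0.26) and MYCBP (0.25) were the upregulated genes, and MAX, the obligate partner, had a log2 fold change of -0.11 that did not pass.

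Genes that MYC is known to raise outside ribosome assembly had 9 of 17 upregulated (52.9%, against 6.11% of all genes), with 0 lower by limma, edgeR or DESeq2, 13 at an unadjusted p under 0.05 (76.5%, against 28.5%) and a median log2 fold change of 0.27. Of 20 listed genes, 17 had a row. This list, like the other further lists, was chosen with earlier results of these data known. Its shares describe the list and are not a test of MYC activity. With 1 library left out the median stayed between 0.21 and 0.32, while the number of calls changed. Of the 17, 0 were called without NC library 3 (12 at an unadjusted p under 0.05) and 1 without miR-21-3p library 1 (5.88%, against 0.987% of all genes). There were 3 without NC library 1 or miR-21-3p library 3 (17.6%, against 2.12% and 1.37%). Without NC library 2 there were 12 (70.6%, against 11%), and without miR-21-3p library 2 there were 10 (58.8%, against 6.08%). LDHA, which makes lactate from pyruvate, was at 9700, 10900 and 10100 normalised reads in the NC and 12900, 12100 and 14000 in the miR-21-3p libraries. The groups did not overlap, and the log2 fold change was 0.34 ± 0.06 (SE, limma adjusted p 0.00781). RAN, the GTPase of nuclear transport, was at 2740, 3420 and 2970 in the NC and 4080, 3710 and 4290 in the miR-21-3p libraries. Its values were separate too, with a log2 fold change of 0.41 ± 0.08 (limma adjusted p 0.00941). ENO1, a glycolytic enzyme, was at 13600, 15100 and 13400 in the NC and 17600, 16200 and 18600 in the miR-21-3p libraries. The miR-21-3p libraries were again all higher, by a log2 fold change of 0.32 ± 0.06 (limma adjusted p 0.0109). Without NC library 3 all of these missed the threshold (adjusted p up to 0.0515 for LDHA, 0.0557 for RAN and 0.0687 for ENO1), and RAN and ENO1 also without miR-21-3p library 1. Over the 6 fits the log2 fold changes were 0.29 to 0.39, 0.33 to 0.49 and 0.27 to 0.37 in the same order. ODC1, SLC19A1, SRM, PHB1, PRMT1 and HSPD1 were the other called genes, with log2 fold changes from 0.17 to 0.56. Named pseudogenes could share the reads of 7 of the 9 called genes: PHB1 has 21, HSPD1 17, RAN 9, LDHA 6, ENO1 4, SRM 2 and PRMT1 1. These are uncertain in the same way, as are TRMT112 with 7, PCNA with 3, MYCL with 2, MKI67 with 1 and VWF with 1.

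**Figure D4:**
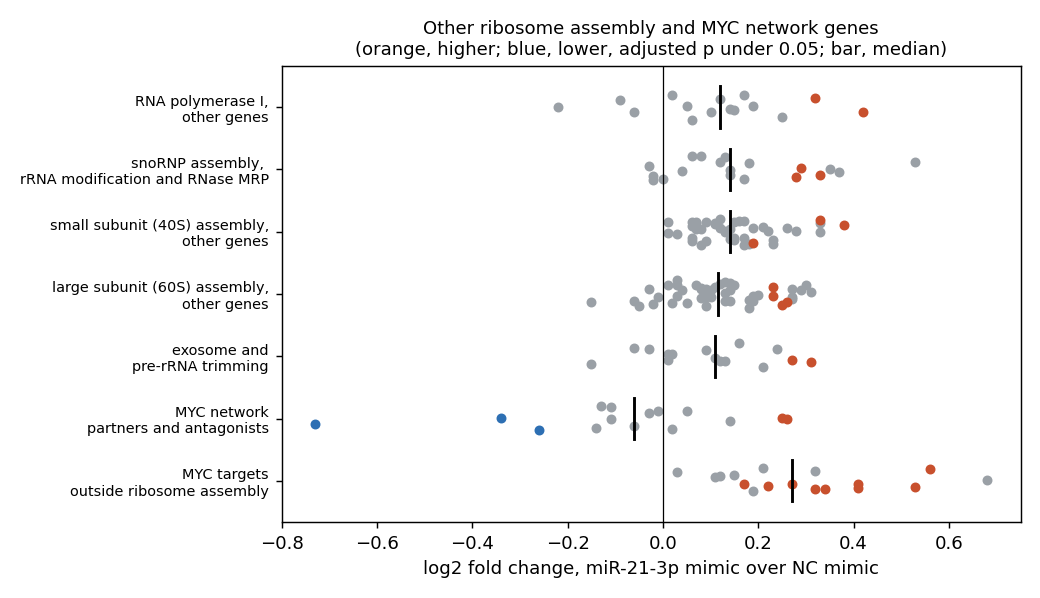
Log2 fold change of 169 further genes in 7 lists, with 1 point per gene and a bar at the median of each list. Orange points were higher (25 genes) and blue points lower (3 genes, all in the MYC network list) at an adjusted p under 0.05.

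Proliferation markers had fold changes above 0, whereas the mitochondrial share was lower in the miR-21-3p libraries. Of 6 proliferation markers, 4 were upregulated by limma (MKI67, CCNB1, PCNA and TOP2A; 66.7%, against 6.11% of all genes), MCM2 and MCM5 did not pass, and the median log2 fold change was 0.32. The count was 1 without NC library 3 (16.7%, against 0.642% of all genes). It was 2 (33.3%) without NC library 1, miR-21-3p library 1 or miR-21-3p library 3 (against 2.12%, 0.987% and 1.37%). Without either library 2 it was 6 (100%, against 11% and 6.08%), and the median ran from 0.25 to 0.42 over all these fits. Their summed level, most of it from MKI67 and TOP2A, was 53048, 64344 and 57886 normalised reads in the NC libraries and 71353, 70359 and 76141 in the miR-21-3p libraries. The groups did not overlap, and NC library 2 was again the highest of its group and miR-21-3p library 2 the lowest. Mitochondrial genes took 9.01%, 8.91% and 9.42% of the normalised reads in the NC and 8.4%, 8.61% and 8.33% in the miR-21-3p libraries, so their share was lower in every miR-21-3p library. The part of either in the values of the ribosome assembly genes was not tested.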

How the data were processed

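Libraries of 3 NC and 3 miR-21-3p transfections were used. The labels give polyA RNA and a stranded mRNA kit, whereas the methods of the study speak of libraries of small RNA; the labels were followed. According to the submitters' processing notes and the labels, reads were handled with bcl2fastq 2.18.12, cutadapt 1.15, TopHat2 2.1.1, featureCounts (Subread 1.5.2) and DESeq2; the genome build is not given in the sources used here. The deposited values are a signal, gene reads that the authors divided by 1 size factor per library and rounded to 3 significant digits (error up to 0.5%). Values up to 20 reads came out as whole reads (100% within 0.1), and larger ones were rounded to the nearest read, exact only to the 3 digits. A count test on raw counts had been planned; because of this unit, limma 3.58.1 (R 4.3.3, trend) was fitted to log2(value + 1) for genes with at least 10 in at least 3 libraries, with Benjamini-Hochberg adjustment over all genes tested and a threshold of 0.05. Fold changes are on that scale. The p-values measure the spread between biological replicates of 1 cell line. edgeR 4.0.16 on these reads called 1651 genes with RLE factors, 1521 scaled by totals and, in a fit chosen after seeing the data, 1642 with TMM factors, and DESeq2 1.42.0 called 1598. The limma and edgeR tests were checked on simulated data.

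Members and lists were chosen with earlier results of these data known. Per-library values are given for MYC, for each called member (at most 20), for the largest change and the most reads in each role group, and for up to 6 rising and 6 falling genes of the further lists by smallest p. Exon lengths, overlaps and pseudogene names came from GENCODE basic annotation, which may differ from that of the authors. The mature sequence of the mimic was not used here.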

Additional observations from a re-analysis of the deposited data

How the results depend on the processing

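With 3 libraries per group, the counts moved when 1 library was left out. Leaving out 1 library in turn, the count of changed genes ran from 176 to 2957, that of the members from 1 to 24 and that of the 169 further genes from 2 to 60, against 1593, 9 and 28 with all libraries. Such fits also have fewer samples, and otherwise the cause was not tested. The members' median log2 fold change stayed between 0.15 and 0.29 and that of MYC between 0.34 and 0.45. MYC was called in each of these fits, as were MYCL and MLXIP.

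DESeq2, edgeR with TMM or RLE factors, scaling by totals, limma after TMM scaling, a pseudocount of 10, no filter and a filter of at least 10 in all 6 libraries gave 7 to 10 members called, 1443 to 1651 genes and 27 to 33 of the further genes. The pseudocount, TMM and total scaling of the limma values and edgeR with TMM factors, with or without the block below, were chosen after seeing the data. Among the genes given with values in each library, RRS1 and DDX21 lost a call in at least 1 of these, and none reversed. Of other called genes named, ODC1 lost it by DESeq2 (adjusted p 0.113) and PRMT1 with limma scaled by totals (0.0514). The values showed no pairing by replicate number: deviations of same-numbered libraries correlated at -0.00, -0.20 and -0.16, and no library correlated best with its own number. With 3 libraries per group, such correlations cannot decide whether same-numbered libraries were handled together. With the number as a block, limma called 1193 genes, 8 members and 20 further genes, and edgeR 1204, 7 and 20. With limma this block ended the calls of RRS1 (adjusted p 0.0661), MXD3 (0.0622), PHB1 (0.0501), SRM (0.0525), HSPD1 (0.0759), PRMT1 (0.0659) and ITGB4 (0.0503). By edgeR with the block, DDX21 and MYCBP also lost the call (adjusted p 0.0509 each). The effect of depth on genes with few reads, such as RRS1 at 147 to 232 normalised reads, was not tested.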
